A study of Mus musculus with 9 samples.

Results

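The report concerns 10 genes that are commonly read as targets of the coactivator YAP and the TEAD transcription factors: Axl, Myof, Crim1, Ankrd1, Ccn1, Ccn2, Amotl1, Amotl2, Fjx1 and Tead1. They were chosen by symbol, and every probe set (a group of array probes summarised to 1 value) annotated to one of them was taken, which gave 22 of 45101 probe sets and 10 of 18193 genes. The cells were Neuro2a, a mouse neuroblastoma line of sympathetic nervous system origin, and 3 treatments of 48 h were compared. In siControl the cells received a control siRNA. In siMyT1 the target was Myt1, which encodes a zinc finger transcription factor of neural cells. In siLSD1 it was Kdm1a, which encodes LSD1, an enzyme that removes methyl groups from histones. Each group had 3 arrays, 9 in all, and no group carried any other labelled agent or allele. The line is a tumour line, the siRNA sequences and any pooling of them are not known here, and the labels do not say whether arrays of a group came from separate cultures. The p-values therefore measure only the spread between these samples, which may be technical.

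YAP and its paralogue TAZ, the product of Wwtr1, bind no DNA themselves and act on genes through the TEAD proteins. The Hippo kinase cascade, which ends in LATS1 and LATS2, phosphorylates them and keeps them out of the nucleus, and angiomotin family proteins bind them as well. In neuroblastoma, activity of this pathway is known from cells of a mesenchymal rather than an adrenergic, neuronal character.

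Values are intensities as deposited, on a linear scale whose unit is unknown. Array medians lay between 0.302 and 0.424 and summed intensities between 196271 and 219953. Each siRNA lowered its target. Myt1 measured 4.90 ± 0.34 (SD, n = 3, as for all means below) in siControl and 0.660 ± 0.21 in siMyT1, and Kdm1a measured 29.0 ± 1.0 in siControl and 4.49 ± 0.40 in siLSD1. In siLSD1 Myt1 measured 6.95 ± 0.72, with all arrays above siControl, without passing the test (log2 difference 0.49, adjusted p = 0.0643). Kdm1a measured 30.9 ± 1.6 in siMyT1 (0.09, adjusted p = 0.546). Between the knockdowns, siMyT1 against siLSD1, Myt1 differed by -3.08. All 8 measured neuroblastoma lineage markers were brighter than the median probe set, with a summed level of 110 to 123 over the siControl arrays. That sum was 94.1 to 98.8 in siMyT1 and 117 to 131 in siLSD1. At an adjusted p under 0.05, 2 of 8 fell in siMyT1 (Phox2a and Hand2), as did 2.29% of all genes. In siLSD1 4 of 8 rose (Phox2a, Gata2, Th and Mycn) and 1 fell (Hand2), as did 3.97% and 4.93% of all genes. With each gene's probe sets averaged, the siLSD1 calls of Mycn (log2 difference 0.40, adjusted p = 0.243) and Hand2 (-0.36, adjusted p = 0.0518) were lost. That of Hand2 was also lost after median centring.

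By log2 difference from siControl, 8 of the 10 genes were above 0 in siMyT1, as were 60.9% of all genes, and 3 of 10 were above 0 in siLSD1, as were 42.6% of all genes. Without probe sets whose identifiers end in _x_at or _s_at, which may hybridise to other transcripts, 5 of 10 were above 0 in siLSD1. Few of these differences passed the test. Against siControl, 3 of 10 rose in siMyT1 (Axl, Amotl1 and Amotl2) and 0 fell, where 5.12% of all genes were higher and 2.29% lower at an adjusted p under 0.05. In siLSD1 3 of 10 fell (Axl, Amotl2 and Tead1) and 1 rose (Fjx1), where 4.93% of all genes were lower and 3.97% higher. The clearest differences lay between the knockdowns: 7 of 10 were higher in siMyT1 than in siLSD1 and 1, Fjx1, was lower, where 13.2% of all genes were higher and 5.58% lower. The comparisons with siControl share its 3 arrays, so their values are given side by side and are not independent of each other. Groups are described here as above or below each other where their arrays did not overlap. The share of all genes with such an order was not counted.

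The median log2 difference of the 10 genes was 0.52 in siMyT1 against siControl, -0.29 in siLSD1 against siControl and 0.73 in siMyT1 against siLSD1. The same medians over all genes were 0.05, -0.03 and 0.09. The choice of probe sets moved the medians of the 10 genes, which were 0.28, -0.15 and 0.49 with each gene's probe sets averaged and 0.34, -0.11 and 0.39 without those ending in _x_at or _s_at. Differences are on the scale log2(value + 0.196), and this pseudocount understates the change of dim genes. The split of calls over all genes depended on scaling. In siMyT1 against siControl it was 931 higher and 417 lower as deposited, 1368 and 1092 after quantile normalization and 662 and 501 after median centring. In siLSD1 against siControl it was 722 and 897, and 1103 and 564 after median centring, and between the knockdowns 2408 and 1015, then 2410 and 1921 after quantile normalization and 1248 and 1695 after median centring. Median centring moved the median of all genes between the knockdowns from 0.09 to -0.04, and the median of the 10 genes to 0.61.

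**Figure D1:**
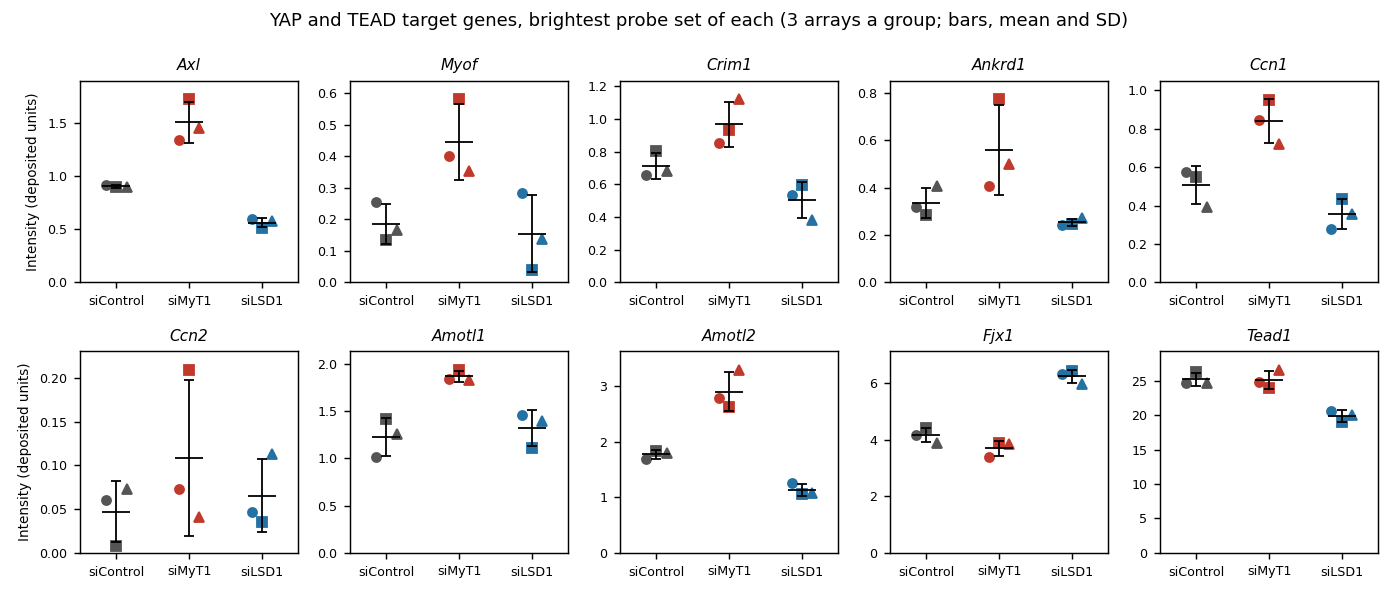
Intensity in deposited units (vertical axes, from 0) of the brightest probe set of each gene in siControl (grey), siMyT1 (red) and siLSD1 (blue). Circles, squares and triangles are replicates 1, 2 and 3, and bars give mean ± SD. Axl, Crim1, Ankrd1 and Amotl2 have all siMyT1 arrays above and all siLSD1 arrays below the siControl arrays, while Fjx1 has the opposite order and Ccn2 stays under 0.21 on all arrays. Of these, Crim1 and Ankrd1 were not called against siControl. The share of all genes with such an order was not counted.

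**Figure D2:**
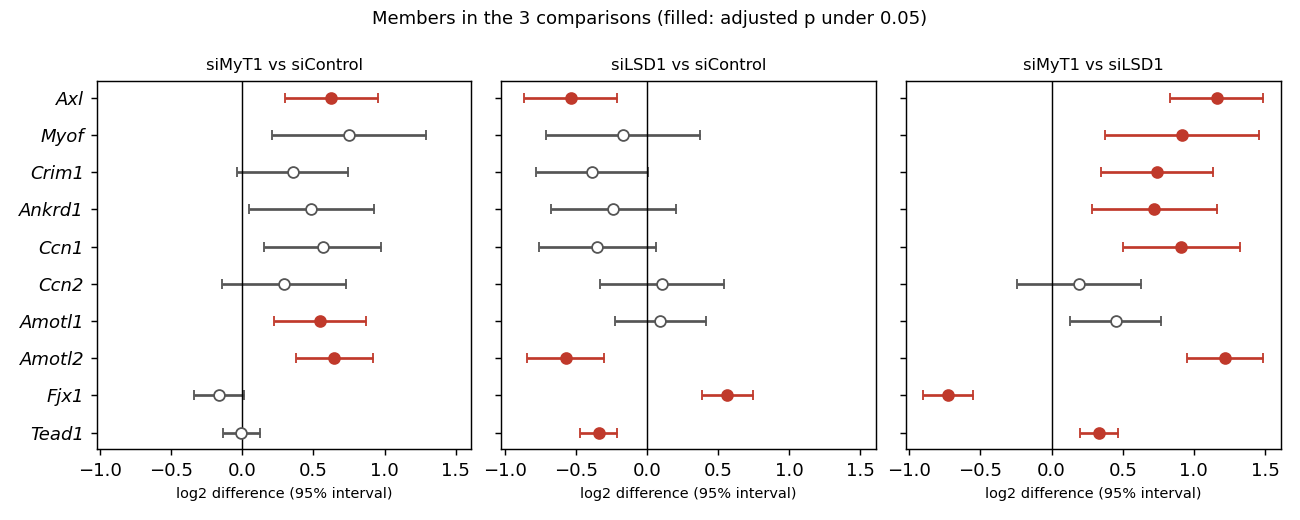
Log2 differences of the 10 genes (points) with 95% intervals (bars) in the 3 comparisons, with filled points where the adjusted p is under 0.05. In siMyT1 against siLSD1, 7 filled points lie right of 0 and 1, that of Fjx1, lies left of it.

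Single arrays bore on many of these values. In 7 of 10 genes the highest of the siMyT1 arrays was replicate 2, which also had the highest median of all arrays, 0.424. How often this held over all genes was not counted. Without siMyT1 replicate 2, 1 gene (Amotl2) was called against siControl and 6 against siLSD1, and the median differences of the 10 genes were 0.43 and 0.64. Calls over all genes fell there too, from 931 higher and 417 lower to 423 and 276 against siControl. Against siLSD1 they fell from 2408 and 1015 to 1525 and 877. Other arrays bore on the counts of the 10 genes as much. Against siControl, 1 gene was also left without siControl replicate 1 or 3 or siMyT1 replicate 3. Those fits called 431 to 441 of all genes higher and 214 to 313 lower. Against siLSD1, 6 genes were left without siMyT1 replicate 3 or siLSD1 replicate 2, and 5 without siLSD1 replicate 3. There 1572 to 1626 of all genes were called higher and 705 to 969 lower. Few markers of other cell types were called against siControl. In siMyT1 1 of 8 fibroblast and 1 of 5 endothelial markers rose, as did 5.12% of all genes, and in siLSD1 0 of either list were called. The 8 fibroblast markers summed to 1.59 to 2.19 in siControl, 2.36 to 2.84 in siMyT1 and 1.72 to 1.86 in siLSD1, with 6 of 8 under the pseudocount on average and Dcn, a matrix proteoglycan, as the member that rose in siMyT1 (0.777 ± 0.053 to 1.29 ± 0.076, adjusted p = 0.0292), a call kept only without siMyT1 replicate 1 among the 6 fits that left out an array (adjusted p up to 0.108) and lost with its probe sets averaged (0.25, adjusted p = 0.461). The 5 endothelial markers summed to 0.928 to 1.79 in siControl, 1.66 to 2.65 in siMyT1 and 1.17 to 1.56 in siLSD1, with 2 of 5 under the pseudocount and Tek, an angiopoietin receptor, as the member that rose in siMyT1 (log2 difference 1.03, adjusted p = 0.0101). The 4 measured Schwann cell markers summed to 1.48 to 2.45, 2.33 to 2.95 and 1.62 to 2.10, and the 5 macrophage markers to 1.31 to 1.60, 1.35 to 1.76 and 1.07 to 1.58, where limma called 0 genes of either list against siControl (at an unadjusted p under 0.05, 1 macrophage marker in siMyT1). Between the knockdowns 1 of 8 fibroblast, 1 of 5 endothelial, 1 of 4 Schwann cell and 0 of 5 macrophage markers were higher in siMyT1, as were 13.2% of all genes. Dcn differed by 0.82 (adjusted p = 0.00221), a call kept in each fit without an array and lost with its probe sets averaged (0.45, adjusted p = 0.0718). Tek differed by 0.67 (adjusted p = 0.0396), a call lost after quantile normalization or median centring and without siMyT1 replicate 2 or 3 or siLSD1 replicate 1 or 2 (adjusted p up to 0.168). The Schwann cell marker Erbb3 differed by 0.55 (adjusted p = 0.0473), a call lost in all 6 fits without an array (adjusted p from 0.0527 to 0.167). The part of array brightness and of these cell type markers in the results was not tested. Bulk RNA does not tell fewer cells of a kind from less RNA per cell.

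Of the 10 genes, 7 had a window in the RefSeq promoter table of GRCm38.p6, from 250 bases before to 50 bases after an annotated start. Sequence outside these windows, such as distal enhancers, was not searched. The TEAD core word GGAATG, or CATTCC on the other strand, was present in 5 of these 7 genes (Axl, Crim1, Ankrd1, Ccn1 and Amotl2). It was present in 14.7% of all 32841 such windows and in at least 1 window of 16.6% of genes. Myof and Amotl1 held no such word in their windows. The AP-1 word TGANTCA, a partner motif at many TEAD-bound enhancers and its own reverse complement, was in the window of 0 of the 7 genes and of 8.98% of all genes. A match is only a run of letters and says nothing of binding in these cells.

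The stretches that hold the word are shown because they are what these 5 genes share beyond the list. Each is written 5′ to 3′ on the strand of its gene with the word in capitals, and ends at the annotated gene, except that of Amotl2, which lies inside the annotated gene and is cut to 30 bases. The word starts 233 bases before the start site of the window in Axl, 79 in Crim1, 210 and 123 in Ankrd1, 103 in Ccn1 and 65 in Amotl2. The positions in GRCm38.p6 are chr19:36119845-36120094 (minus strand) for Ankrd1, chr3:145649986-145650235 (minus strand) for Ccn1, chr7:25788925-25788983 (minus strand) for Axl, chr17:78199998-78200232 (plus strand) for Crim1 and chr9:102717727-102717756 (plus strand) for Amotl2.
Ankrd1: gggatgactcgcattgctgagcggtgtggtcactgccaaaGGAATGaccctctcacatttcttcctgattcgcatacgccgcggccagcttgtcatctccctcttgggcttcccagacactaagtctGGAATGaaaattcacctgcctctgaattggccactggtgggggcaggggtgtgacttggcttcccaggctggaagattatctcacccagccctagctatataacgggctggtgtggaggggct
Ccn1: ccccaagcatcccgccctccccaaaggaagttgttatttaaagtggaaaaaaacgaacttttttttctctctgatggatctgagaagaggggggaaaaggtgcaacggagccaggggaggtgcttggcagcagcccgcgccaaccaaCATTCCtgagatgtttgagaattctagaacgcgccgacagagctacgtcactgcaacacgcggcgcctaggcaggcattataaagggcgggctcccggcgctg
Axl: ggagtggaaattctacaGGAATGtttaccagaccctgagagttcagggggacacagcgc
Crim1: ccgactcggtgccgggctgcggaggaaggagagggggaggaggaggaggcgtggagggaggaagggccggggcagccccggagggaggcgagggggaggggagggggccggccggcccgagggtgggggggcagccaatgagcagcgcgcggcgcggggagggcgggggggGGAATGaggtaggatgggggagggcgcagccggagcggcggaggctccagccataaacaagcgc
Amotl2: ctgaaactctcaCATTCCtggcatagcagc

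The 5 genes with the word were all higher in siMyT1 than in siLSD1, and so was Myof without it, while Amotl1 missed the threshold. Over all genes 13.2% were called higher in this comparison. Whether the word bears on these differences was not tested.

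Among the transcription factors, Tead1 encodes the founding TEAD factor and is both a partner of YAP and a listed target. Its brighter probe set measured 24.7, 26.2 and 24.6 in siControl, 24.8, 23.9 and 26.6 in siMyT1 and 20.7, 19.0 and 20.0 in siLSD1. The siLSD1 arrays lay below all others, and those of the other groups overlapped. Tead1 fell in siLSD1 (log2 difference -0.34, SE 0.06, adjusted p = 0.00318) and not in siMyT1 (-0.01, 95% interval -0.14 to 0.13). The fall was not called after median centring (-0.26, adjusted p = 0.123).

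The other Tead1 probe set, a dimmer one, showed the same order with a larger drop. It measured 1.81, 1.57 and 1.82 in siControl, 2.06, 2.29 and 1.60 in siMyT1 and 0.911, 0.691 and 0.891 in siLSD1, or 47.9% of control. In a fit over all 45037 non-control probe sets, where 5.05% were called in siLSD1 against siControl, its log2 difference was -0.92 (adjusted p = 0.00342).

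Its TEAD partners and coactivators, which are no targets on the list, moved unevenly. Of 9 YAP, TAZ, TEAD and vestigial-like (Vgll) genes, Tead1 included, 2 rose and 0 fell in siMyT1, 0 rose and 2 fell in siLSD1, and between the knockdowns 3 were higher and 0 lower in siMyT1. The shares called over all genes were 5.12% higher in siMyT1, 4.93% lower in siLSD1 and 13.2% higher between the knockdowns. Wwtr1, the gene of TAZ, measured 13.3, 14.2 and 12.3 in siControl, 21.6, 24.4 and 25.4 in siMyT1 and 9.08, 9.24 and 9.01 in siLSD1. All siMyT1 arrays lay above and all siLSD1 arrays below control. It rose in siMyT1 (log2 difference 0.83, SE 0.07, adjusted p = 2.9e-05), fell in siLSD1 (-0.53, SE 0.07, adjusted p = 0.000464) and kept both calls under each of the 18 alternatives tried.

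Both other Wwtr1 probe sets also rose in siMyT1, from 5.81 ± 0.44 to 9.66 ± 0.65 and from 3.53 ± 0.87 to 7.52 ± 1.9. The first of them fell in siLSD1 to 4.28 ± 0.22 (adjusted p = 0.00851), and the other measured 3.04 ± 0.31 there (adjusted p = 0.718). Tead2, a TEAD factor of early development, measured 0.462, 0.420 and 0.401 in siControl, 0.752, 1.19 and 0.911 in siMyT1 and 0.376, 0.211 and 0.174 in siLSD1. It rose in siMyT1 (log2 difference 0.86, SE 0.21, adjusted p = 0.0263), and its siLSD1 arrays lay below control without passing the test (-0.50, adjusted p = 0.193). The rise held only in the fit without siMyT1 replicate 1 among those that left out a siControl or siMyT1 array (siControl replicates 1, 2 and 3 and siMyT1 replicates 2 and 3 each ended it, adjusted p up to 0.0984), whereas the difference between the knockdowns (1.36, adjusted p = 0.00063) was kept in each of the 6 fits that left out an array.

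Yap1 itself was dim. Its brighter probe set measured 0.118 ± 0.077 in siControl, 0.195 ± 0.051 in siMyT1 and 0.135 ± 0.026 in siLSD1, all near or under the pseudocount, and the other measured 0.117 ± 0.085, 0.0368 ± 0.016 and 0.0705 ± 0.076. Tead3 and Tead4 were not called in any comparison, with log2 differences from siControl between -0.05 and 0.19.

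**Figure D3:**
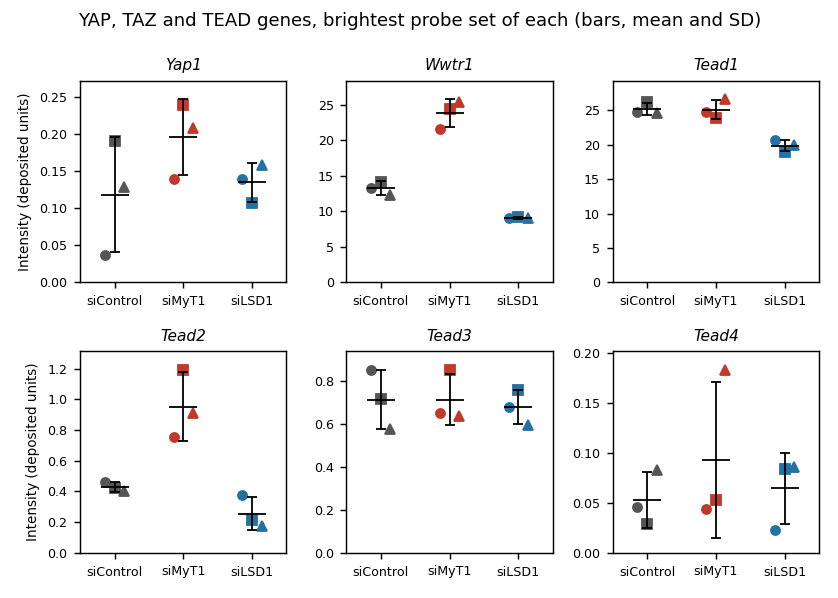
Intensity in deposited units (vertical axes, from 0) of Yap1, Wwtr1 and Tead1 to Tead4 on each array, by the brightest probe set, with replicates 1 to 3 as circles, squares and triangles and bars for mean ± SD. The Wwtr1 arrays separate into 21.6 to 25.4 in siMyT1, 12.3 to 14.2 in siControl and 9.01 to 9.24 in siLSD1.

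Of the secreted matricellular proteins, Ccn1 (formerly Cyr61) and Ccn2 (formerly Ctgf) are the most used readouts of YAP activity. The brightest Ccn1 probe set measured 0.574, 0.550 and 0.393 in siControl, 0.846, 0.949 and 0.722 in siMyT1 and 0.278, 0.434 and 0.354 in siLSD1. The siMyT1 arrays lay above all others, and those of siLSD1 and siControl overlapped. The difference between the knockdowns was called (log2 difference 0.91, 95% interval 0.50 to 1.32, adjusted p = 0.00447), and those from control were not (0.57, adjusted p = 0.0973, and -0.35, adjusted p = 0.333).

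The Ccn1 result rests on that probe set, whose identifier ends in _x_at. The next brightest measured 0.289 ± 0.13 in siControl, 0.403 ± 0.092 in siMyT1 and 0.346 ± 0.071 in siLSD1, with overlapping groups and a difference of 0.14 between the knockdowns. The remaining Ccn1 probe sets were under 0.1 on all arrays. With the gene read without probe sets of this kind, the difference between the knockdowns was 0.14 (adjusted p = 0.74).

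Ccn2 had 1 probe set, which measured 0.0609, 0.00736 and 0.0724 in siControl, 0.0731, 0.209 and 0.0414 in siMyT1 and 0.0472, 0.0355 and 0.113 in siLSD1. The groups overlapped, and 8 of 9 arrays were under the pseudocount. Its differences were not called and their intervals were wide (-0.14 to 0.73 in siMyT1 and -0.33 to 0.54 in siLSD1, log2 against siControl). Among the 4 other CCN genes measured, 1 rose in siMyT1 and 1 fell in siLSD1, in both cases Ccn4, a Wnt-induced member (formerly Wisp1). Over all genes, 5.12% were called higher in siMyT1 and 4.93% lower in siLSD1. Ccn4 measured 5.40 ± 0.28 in siControl, 7.93 ± 0.33 in siMyT1 and 4.41 ± 0.048 in siLSD1 (log2 differences 0.54, adjusted p = 0.000513, and -0.28, adjusted p = 0.0213). The fall was lost after median centring, and without siControl replicate 1 or 2 or siLSD1 replicate 1 or 3 (adjusted p up to 0.087).

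At the cell surface, Axl is a receptor tyrosine kinase of the TAM family, activated by Gas6. It measured 0.920, 0.896 and 0.899 in siControl, 1.35, 1.73 and 1.46 in siMyT1 and 0.600, 0.516 and 0.579 in siLSD1. The groups did not overlap in any pairing. The mean was 1.67 times control in siMyT1 (log2 difference 0.63, SE 0.15, adjusted p = 0.0247) and 0.624 times control in siLSD1 (-0.53, SE 0.15, adjusted p = 0.0443), and the knockdowns differed by 1.16 (SE 0.15, adjusted p = 0.000179).

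The calls of Axl against control were close to the threshold. Leaving out siControl replicate 1, 2 or 3, or siMyT1 replicate 2 or 3, ended the rise in siMyT1 (adjusted p up to 0.0854), and the fall in siLSD1 without any of the 6 arrays compared (adjusted p from 0.0847 to 0.135). The difference between the knockdowns was called in each such fit. Its other probe set was at most 0.0828 on any array. The TAM receptors Tyro3 and Mertk and the ligands Gas6 and Pros1 were not called in any comparison (0 of 4 by limma, and 0 at an unadjusted p under 0.05; the smallest adjusted p was 0.346).

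Myof encodes myoferlin, a ferlin of membrane repair and fusion. Its brighter probe set measured 0.255, 0.134 and 0.166 in siControl, 0.403, 0.581 and 0.354 in siMyT1 and 0.285, 0.0404 and 0.139 in siLSD1. The siMyT1 arrays lay above all others, with the siLSD1 arrays spread around control. Its log2 difference was 0.75 in siMyT1 against siControl (adjusted p = 0.095) and 0.92 between the knockdowns (adjusted p = 0.0213). The latter call was lost without siMyT1 replicate 2 or siLSD1 replicate 2 or 3 (adjusted p up to 0.1). The identifier of this probe set ends in _s_at, and the other one measured 0.0830 ± 0.035 in siMyT1 and 0.0649 ± 0.041 in siLSD1, a difference of 0.10. Of the 4 other ferlin genes measured, limma called 0 in any comparison, with 0 at an unadjusted p under 0.05 and a smallest adjusted p of 0.294.

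Crim1 encodes a transmembrane protein with cysteine-rich repeats that binds BMP ligands. It measured 0.656, 0.802 and 0.682 in siControl, 0.852, 0.934 and 1.12 in siMyT1 and 0.535, 0.597 and 0.381 in siLSD1. All siMyT1 arrays lay above and all siLSD1 arrays below control, without passing the test on either side (0.35, adjusted p = 0.3, and -0.39, adjusted p = 0.245). The knockdowns differed by 0.74 (SE 0.18, adjusted p = 0.0119), a call lost without siMyT1 replicate 3 or siLSD1 replicate 3 (adjusted p up to 0.0636). Its dimmer probe set measured 0.173 ± 0.061, 0.207 ± 0.0096 and 0.158 ± 0.042 in the same order of groups, with a difference of 0.19 between the knockdowns that was not called.

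In the nucleus, Ankrd1 encodes an ankyrin repeat protein of stressed muscle and a widely used YAP readout. It had 2 probe sets of nearly equal brightness. The first, used for the gene, measured 0.318, 0.284 and 0.407 in siControl, 0.408, 0.774 and 0.501 in siMyT1 and 0.244, 0.245 and 0.272 in siLSD1. The other measured 0.414, 0.386 and 0.330 in siControl, 0.501, 0.624 and 0.600 in siMyT1 and 0.180, 0.104 and 0.162 in siLSD1. In both, all siMyT1 arrays lay above and all siLSD1 arrays below control.

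By the first probe set, Ankrd1 differed between the knockdowns by 0.72 (SE 0.20, adjusted p = 0.0243) and not from control on either side (adjusted p = 0.188 and 0.592). The call was lost without siMyT1 replicate 2 or 3 or any of the siLSD1 arrays (adjusted p up to 0.0859). By the other, in the fit over all probe sets, it differed between the knockdowns by 1.17 (adjusted p = 0.00155) and fell in siLSD1 by 0.74 (adjusted p = 0.0387), to 39.4% of control. In that fit 11.2% of probe sets were called between the knockdowns, 5.05% in siLSD1 against siControl and 3.24% in siMyT1 against siControl.

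**Figure D4:**
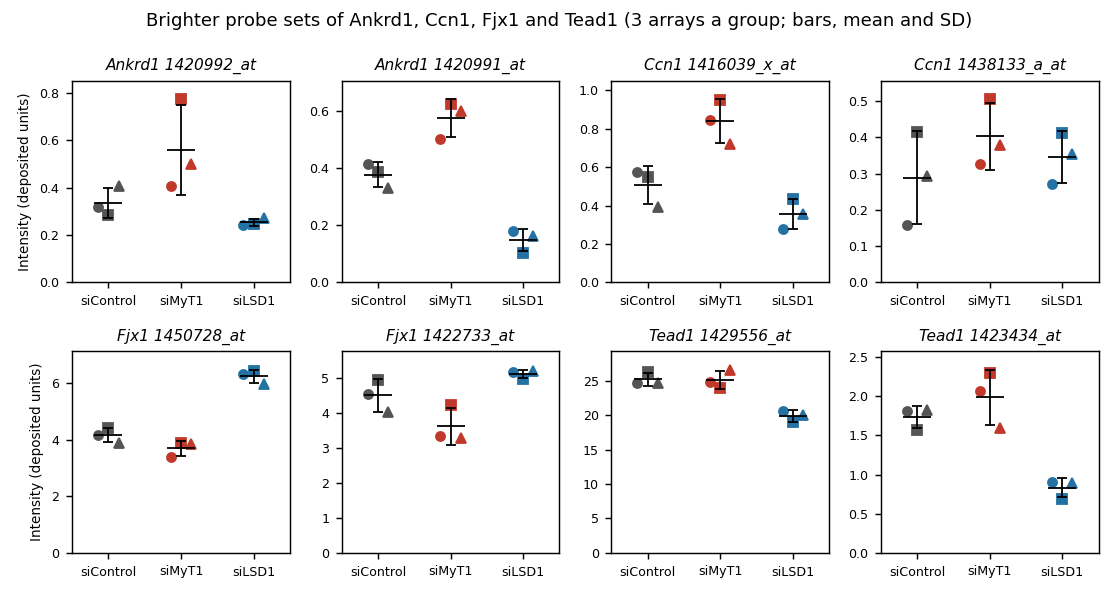
Intensity in deposited units (vertical axes, from 0) of the brighter probe sets of Ankrd1, Ccn1, Fjx1 and Tead1 on each array, named by identifier, with replicates 1 to 3 as circles, squares and triangles and bars for mean ± SD. Both Ankrd1 and both Tead1 panels put the siLSD1 arrays lowest, while only the left Ccn1 panel separates siMyT1 from the other groups.

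The angiomotin-like genes Amotl1 and Amotl2 encode junctional scaffold proteins that bind YAP and restrain it, and so act as feedback on the pathway whose target they are. Amotl2 measured 1.68, 1.84 and 1.80 in siControl, 2.78, 2.63 and 3.29 in siMyT1 and 1.26, 1.06 and 1.08 in siLSD1. All siMyT1 arrays lay above and all siLSD1 arrays below control. It rose in siMyT1 to 1.64 times control (log2 difference 0.65, SE 0.12, adjusted p = 0.00776) and fell in siLSD1 to 0.638 times control (-0.57, SE 0.12, adjusted p = 0.0111).

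The knockdowns differed in Amotl2 by 1.22 (SE 0.12, adjusted p = 2.66e-05). The rise in siMyT1 and the difference between the knockdowns were called under each of the 18 alternatives, and the fall in siLSD1 under 17, the exception being the fit without siLSD1 replicate 3 (adjusted p = 0.0521). It had 1 probe set, so no other stood beside it.

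Amotl1 measured 1.01, 1.41 and 1.26 in siControl, 1.84, 1.94 and 1.83 in siMyT1 and 1.46, 1.11 and 1.39 in siLSD1. The siMyT1 arrays lay above all others, and those of siLSD1 overlapped with control. It rose in siMyT1 (log2 difference 0.55, SE 0.15, adjusted p = 0.0422), while in siLSD1 the difference was 0.09 (95% interval -0.23 to 0.41). Between the knockdowns it was 0.45 (adjusted p = 0.0502). The rise was kept in 9 of 18 alternatives and in 1 of the 6 fits without an array, that without siControl replicate 2, and ended after median centring (adjusted p = 0.0531). Its next probe set measured 0.520 ± 0.063, 0.751 ± 0.066 and 0.538 ± 0.095 in siControl, siMyT1 and siLSD1, the same order, without a call (adjusted p = 0.301 in siMyT1). Amot, the founding angiomotin, was not called (log2 differences -0.11 in siMyT1 and -0.21 in siLSD1).

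Fjx1, the homologue of the fly Golgi kinase four-jointed, which modifies Fat-type cadherins, went against the others. Its brightest probe set measured 4.17, 4.41 and 3.90 in siControl, 3.39, 3.88 and 3.84 in siMyT1 and 6.33, 6.43 and 5.99 in siLSD1. All siLSD1 arrays lay above control and all siMyT1 arrays below it. It rose in siLSD1 to 150.2% of control (log2 difference 0.57, SE 0.08, adjusted p = 0.000634), and in siMyT1 the difference was -0.16 (adjusted p = 0.295; -0.21 and adjusted p = 0.0326 after quantile normalization). The knockdowns differed by -0.73 (SE 0.08, adjusted p = 5.43e-05).

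The next Fjx1 probe set measured 4.49 ± 0.46 in siControl, 3.61 ± 0.53 in siMyT1 and 5.10 ± 0.12 in siLSD1. It differed between the knockdowns in the same direction (-0.49, adjusted p = 0.00984) and was not called in siLSD1 against siControl (0.18, adjusted p = 0.45). The last was dim, at 0.164 ± 0.14, 0.0934 ± 0.079 and 0.0430 ± 0.026. With all Fjx1 probe sets averaged, its calls were lost (adjusted p = 0.839 in siLSD1 against siControl and 0.111 between the knockdowns).

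Of the kinases and upstream regulators of the Hippo cascade, 20 were measured. Against siControl, 2 rose and 0 fell in siMyT1, where 5.12% of all genes were called higher and 2.29% lower. These were Wwc2, a KIBRA family scaffold (by 0.25, adjusted p = 0.0316), and Stk38, a LATS-related kinase (by 0.31, adjusted p = 0.0167). In siLSD1 2 rose and 0 fell, where 3.97% of all genes were called higher and 4.93% lower. They were Stk38 (by 0.41, adjusted p = 0.002) and the YAP kinase Lats1 (by 0.23, adjusted p = 0.035). With each gene's probe sets averaged, these siLSD1 calls were lost, at 0.0015 for Stk38 (adjusted p = 0.998) and 0.072 for Lats1 (adjusted p = 0.687). By limma at an unadjusted p under 0.05, 7 of 20 in siMyT1 and 4 of 20 in siLSD1 differed from siControl in either direction. The share of all genes at that threshold was not counted. The medians of the list were 0.03 in both, where those of all genes were 0.05 in siMyT1 and -0.03 in siLSD1.

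Lats1 stood at 8.94 ± 0.32 in siControl, 10.4 ± 0.28 in siMyT1 (adjusted p = 0.0541) and 10.5 ± 0.56 in siLSD1, and its call was lost in 5 of the 6 fits without an array (adjusted p up to 0.163). The call of Wwc2 was lost in 5 of 6 (up to 0.116) and after quantile normalization and median centring. Stk38 was no longer called in siMyT1 when siControl replicate 1 or siMyT1 replicate 3 was left out (up to 0.0864) or after median centring, and its difference was -0.000385 with all its probe sets averaged. Between the knockdowns, Sav1, the scaffold of the kinases (0.36, adjusted p = 0.021), and the kinase Map4k4 (0.21, adjusted p = 0.0396) were higher in siMyT1, while the cadherin Dchs1 (-0.52, adjusted p = 0.00771) and the scaffold Wwc1 (-0.27, adjusted p = 0.0363) were lower. Of these, Dchs1 alone kept its call in each fit without an array, the others losing theirs in 4 or 5 of 6 (adjusted p up to 0.163). With probe sets averaged, Map4k4 differed by 0.011 and Wwc1 by -0.074, and neither was called. Over all genes, 13.2% were called higher and 5.58% lower between the knockdowns. Lats2 and Ptpn14, which are themselves targets in published YAP signatures, were not called in any comparison.

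Of 12 further genes of a published YAP and TAZ target signature, 3 rose and 0 fell in siMyT1, 1 rose and 0 fell in siLSD1, and between the knockdowns 2 were higher and 1 lower in siMyT1. Over all genes, 5.12% were called higher in siMyT1 and 3.97% in siLSD1, and between the knockdowns 13.2% were higher and 5.58% lower. The 2 of 12 higher between the knockdowns thus lay near the share of all genes. The median log2 difference of the 12 genes was 0.12 in siMyT1 and -0.03 in siLSD1. Gadd45a, a growth arrest gene, measured 5.53 ± 0.41 in siControl, 11.8 ± 0.43 in siMyT1 and 4.90 ± 0.28 in siLSD1 (log2 difference 1.06 in siMyT1, adjusted p = 8.24e-06). Tgfb2, a TGF-beta ligand, measured 8.28 ± 0.53, 11.2 ± 1.1 and 7.48 ± 0.77 (0.43 in siMyT1, adjusted p = 0.0122), and F3, tissue factor, 2.67 ± 0.37, 3.82 ± 0.48 and 3.18 ± 0.18 (0.49 in siMyT1, adjusted p = 0.0217).

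Median centring ended the call of Tgfb2 in siMyT1, as did fits without siControl replicate 1 or siMyT1 replicate 3 (highest adjusted p 0.062). F3 lost its call when siControl replicate 1 or 3, or siMyT1 replicate 2 or 3, was left out (up to 0.0923). Rbms3, an RNA-binding protein, rose in siLSD1 by 0.25 (adjusted p = 0.0403) and was lower in siMyT1 than in siLSD1 (-0.24, adjusted p = 0.0292), calls lost in 4 and 5 of 6 fits without an array (up to 0.16). Foxf2, Igfbp3, Nt5e, Nuak2, Dock5, Ccdc80, Asap1 and Arhgef17 were not called in any comparison.

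Over the 9 arrays, the genes most like Ccn1 among 9096 others brighter than the median gene were Chtf18, Slc35b2 and Apba3 (Pearson's r of log2 values 0.967, 0.965 and 0.963). Those most like Ankrd1 were Cdk7, Golgb1 and Slc39a1 (0.975, 0.963 and 0.961), and those most like Ccn2, which was under the pseudocount on most arrays, were Tpst2, St7 and Ifnar2 (0.876, 0.876 and 0.867). These values describe arrays that share their groups and carry no test.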

How the data were processed

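Total RNA of 9 Neuro2a samples was labelled with biotin for 1-colour arrays, per the labels' protocols. The authors deposited 1 linear intensity per probe set and array; how the probes were summarised, corrected and scaled is not given in the sources used here. Intensities were used as deposited and analysed as log2(value + pseudocount). The pseudocount of 32 applies on a scale where the mean of the array means, trimmed by 2% at each end, is 500 (1 deposited unit = 163.6), which makes it 0.196 deposited units.

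Probe sets were named from the platform's annotation table. Of 45101 probe sets, 34945 had 1 symbol, and 34741 of these matched RefSeq (GRCm38.p6) by Entrez identifier, which changed 0 symbols. Ccn1 and Ccn2 were listed under these symbols. Each of 18193 genes was represented by its brightest probe set. Group means over all 9 arrays were fitted with limma 3.58.1 in R 4.3.3 with an intensity trend (6 residual and 6.84 prior degrees of freedom). Tests were two-sided, adjusted over all genes by Benjamini-Hochberg, with a threshold of 0.05. A second fit over 45037 non-control probe sets gave the values of further probe sets. An exact permutation test of 3 against 3 arrays cannot go below p = 0.1 and was not used. The scripts were tested on simulated data. Precision is limited by the number of arrays.

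The members and gene lists were chosen with earlier results of these data known. The rule for named genes took all members with every probe set, both siRNA targets, all YAP, TAZ and TEAD factors, up to 4 genes per list and comparison by smallest adjusted p, and the 3 genes most correlated with Ccn1, Ccn2 and Ankrd1; other list genes named as not called, or with a marker list, fall outside it and were chosen after their values were seen. Listed genes with no single-symbol probe set (such as Stk3 and Fer1l5) were not used here. Alternatives were other normalizations, pseudocounts (1 and 100), removal of dim probe sets, averaging or dropping of a gene's probe sets, other variance models, a replicate block and leaving out each array; those for the context genes were added after seeing the data.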

Additional observations from a re-analysis of the deposited data

How the results depend on the processing

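Of the 10 genes, the number called in siMyT1 against siControl was 3 and became 1 with each gene's probe sets averaged and 1 with the replicate block; without 1 array it ranged from 1 to 2. In siLSD1 against siControl it was 4, became 2 with all probe sets averaged, and ranged from 2 to 3 without 1 array. Between the knockdowns it was 8, became 5 with all probe sets averaged, and ranged from 5 to 8 without 1 array. The other alternatives kept these counts within 1.5 times. Calls over all genes changed as well. Against siControl, siMyT1 had 618 higher and 244 lower with probe sets averaged, and 649 and 286 with the replicate block. Without 1 array it had 423 to 1174 higher and 214 to 313 lower. For siLSD1 against siControl the counts were 455 and 624 with probe sets averaged, and 432 to 731 and 523 to 802 without 1 array. Between the knockdowns they were 1787 and 741, then 1525 to 2897 and 705 to 969. With the filter on dim probe sets, Myof and Ccn2 were not tested. The main fit did not pair same-numbered arrays, and the labels do not say whether they belong together. Deviations from the group means correlated between -0.13 and 0.14 for same-numbered arrays and between -0.21 and 0.10 for others. Of the 9 arrays, 5 correlated best with their own number. These values do not decide whether the arrays were paired. Among the 10 genes, the replicate block ended the calls of Axl against siControl (adjusted p = 0.0533 in siMyT1 and 0.0851 in siLSD1) and of Amotl1 in siMyT1 (adjusted p = 0.0793), and left 8 genes called between the knockdowns.

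The values that turned sign were uncalled, with Stk38 as the exception. Tead1 in siMyT1 against siControl became 0.0795 with probe sets averaged and 0.0265 with array weights, and without 1 array ranged from -0.0480 to 0.0271, above 0 without siControl replicate 2 or siMyT1 replicate 1 or 2. In siLSD1 against siControl, without probe sets ending in _x_at or _s_at, Myof became 0.0260 and Ccn1 0.187. Without 1 array, Myof ranged from -0.425 to 0.0880 (above 0 without siLSD1 replicate 2), Amotl1 from -0.0198 (without siControl replicate 1) to 0.199, and Ccn2 from -0.0233 to 0.186 (below 0 without siControl replicate 2 or siLSD1 replicate 3). Between the knockdowns Ccn2 ranged from -0.0361 (without siMyT1 replicate 2) to 0.350. The called value of Stk38 in siMyT1 became -0.000385 with probe sets averaged. The cause of these changes was not tested. The unit of the deposited intensities is unknown and no detection calls were used, so differences of Ccn2, Yap1 and other genes under the pseudocount are not resolved.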
